A study of Daphnia magna with 9 samples.

Results

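The comparison described here set starved wild-type Daphnia magna against DNMT3.1 mutants kept in the nutrient-rich condition, so food and line differed together. Its members are 6 of the 9 RNA-seq libraries of the series, chosen by their labels: 3 from starved wild type and 3 from nutrient-rich mutants. The other 3 libraries, from starved mutants, share their food with the wild type and their line with the nutrient-rich mutants, and their levels were used to place each difference. No nutrient-rich wild type is among the 9 libraries. Food was therefore compared only within the mutant and the lines only at low food. All animals were females of postnatal day 12, the age at which the second clutch was released. The wild type was the NIES strain. The mutant line came from a single founder that had received Cas9 with a guide against DNMT3.1 and carried a frameshift with an early stop codon on each allele, so any other difference between that clone and the wild type cannot be told apart from the loss of DNMT3.1. Each library pooled whole bodies of 5 daphnids grown one per tube, with the eggs taken out before RNA was made. Starved animals received 6400000 Chlorella cells per daphnid and day and nutrient-rich animals 8-fold more. Nothing in the sources used here says whether the repeats of a treatment ran on separate days, so the p-values cover only the spread among these libraries, and each level is an average over whole bodies in which fewer cells of a type and less RNA per cell cannot be told apart.

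Daphnids are clonal filter feeders that turn algae into body growth, storage lipid and yolk. In crustaceans yolk is made from vitellogenins, large lipid-carrying proteins that are secreted into the blood and taken up by growing oocytes, and adults alternate clutches with moults under the control of ecdysteroids and methyl farnesoate. DNA methyltransferases of the DNMT3 family set new methylation marks in animals, and some members without catalytic motifs act through partner proteins in mammals. The target of the guide in DNMT3.1 (Dapma7bEVm006722t1) is shown because it defines what separates the lines, with the protospacer adjacent motif in capitals and 5′ to 3′ as the study lists it. The deposited tables give no genome coordinates for it.
DNMT3.1 guide target: ggaagaggtgtacgaactcaaTGG

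DNMT3.1 itself differed strongly in this comparison, and it did so with food. Its level was 85.2, 111 and 79.2 CPM (read counts relative to library size, scaled by TMM, a normalization that aligns most genes between libraries) in starved wild-type replicates 1 to 3 and 10.8, 4.40 and 9.69 CPM in nutrient-rich mutant replicates 1 to 3. Starved mutants had 87.6, 40.0 and 61.7 CPM and so lay with the starved wild type, well above their nutrient-rich sisters. The log2 difference, nutrient-rich mutant minus starved wild type, was -3.46 with an SE of 0.39 (adjusted p = 0.00115, from the quasi-likelihood test of edgeR with Benjamini-Hochberg adjustment). A frameshifted transcript can still be counted, so its level does not tell the lines apart. The other DNA methyltransferases were not called: DNMT1 (Dapma7bEVm005001t1), which copies methylation onto new strands, had 10.9 ± 2.67 CPM (SD, n = 3) in starved wild type and 20.03 ± 5.52 CPM in nutrient-rich mutants, and DNMT3.2 (Dapma7bEVm011900t1) had 2.22 ± 0.228 and 2.32 ± 0.730 CPM. With DESeq2, another tool, DNMT1 was called higher, which no other alternative did.

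Counted reads per library ranged from 9270993 to 11806614. TMM factors were 1.01 to 1.06 in starved wild type, 1.10 to 1.13 in starved mutants and 0.749 to 0.928 in nutrient-rich mutants. Replicate 2 of the nutrient-rich mutants was unlike the rest. The 10 most counted features took 19.5% of the reads there, against 8.6% to 12.9% in the other libraries, and its log2 CPM correlated with the other nutrient-rich libraries at r = 0.893 and 0.908, across features, where those correlated with each other at 0.956. Its summed level of DNA replication genes was 6630 CPM against 2797 and 3146 CPM in the other nutrient-rich libraries, that of germ line genes 5914 against 2291 and 2393 CPM, and that of collagens 28940 against 7524 and 8525 CPM. The part of these gene groups in the results was not tested, and counts with and without this library are given below. The starved mutants, which place each difference, were not at equal distance from the starved wild type. Replicate 1 correlated with the wild-type libraries at r = 0.918 to 0.925, replicate 3 at 0.891 to 0.905 and replicate 2 at 0.863 to 0.88. Markers of gut, yolk-producing tissue, muscle, nerve and eye, haemocytes and epidermis were all counted in every group, as whole bodies should give.

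Of 18675 features tested, 2605 (13.9%) were called between nutrient-rich mutant and starved wild type, which means an adjusted p under 0.05 and at least a 1.5-fold difference. In nutrient-rich mutants 1173 (6.28%) were higher and 1432 (7.67%) lower. The larger differences went mostly downward, with 127 features at least 4-fold higher and 338 at least 4-fold lower. Between the lines at equal, low food 1337 features (7.16%) were called, of which 546 (2.92%) had more reads in the mutant and 791 (4.24%) fewer. Between food levels within the mutant 4319 (23.1%) were called, 2241 (12.0%) higher and 2078 (11.1%) lower when food was rich. Groups that did not overlap, in either direction, occurred in 39.5% of all tested features, so a lack of overlap carries little weight for any 1 gene.

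The direction of the calls depended on the scaling. With library totals in place of TMM the median of all features moved from 0.02 to -0.23 on the log2 scale, and the calls then split into 448 higher and 2123 lower. Leaving out starved wild-type replicate 1, 2 or 3 lowered the 2605 calls to 1070, 1218 or 1272, leaving out starved mutant replicate 3 lowered them to 1736, and leaving out nutrient-rich mutant replicate 2 raised them to 3168.

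Most of the differences followed food. For 1681 of the 2605 called features (64.5%), 756 higher and 925 lower, the step from starved to nutrient-rich mutant was called in the same direction and the step between the lines at low food was not. Only the line step was called for 115 (4.41%), 40 higher and 75 lower. Both steps were called in the same direction for 20 (0.768%), of which 17 were lower. The steps were called in opposite directions for 215 (8.25%), which places the starved mutant outside the range spanned by both groups. For the remaining 574 (22.0%) the sum of the steps was called but neither step alone. Without nutrient-rich mutant replicate 2 the features that followed food numbered 1939 and those that followed the line 234. Each starved wild-type library lowered the food class when left out, to 878, 979 and 964 for replicates 1 to 3. The line class was the less stable, with 25, 45 and 48 features without those libraries and 65 and 38 without starved mutant replicates 2 and 3.

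The position of the starved mutant was also described without regard to the calls of the steps, as the line step divided by the whole difference on the log2 scale. In 607 called features (23.3%) this share lay between 0 and 0.25, near the starved wild type, and in 70 (2.69%) between 0.75 and 1, near the nutrient-rich mutant. A further 584 (22.4%) lay between these bounds. The most frequent place was outside the range: 1221 (46.9%) lay beyond the starved wild type, away from the nutrient-rich mutant, and 123 (4.72%) beyond the nutrient-rich mutant. A place beyond the starved wild type means only that the line step had the opposite sign to the whole difference, so steps near 0 count too. The line step was called in 169 of the 1221, those with opposite steps. Of the 1681 features that followed food 1052 lay beyond the starved wild type, with a line step that was not called. Among these the median line step was -0.235 in the 524 that were higher and 0.22 in the 528 that were lower, on the log2 scale, beside a median whole difference of 0.92 and 1.18 in size. The median SE of the line step over all tested features was 0.294, so the sign of such steps carries little weight.

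**Figure D1:**
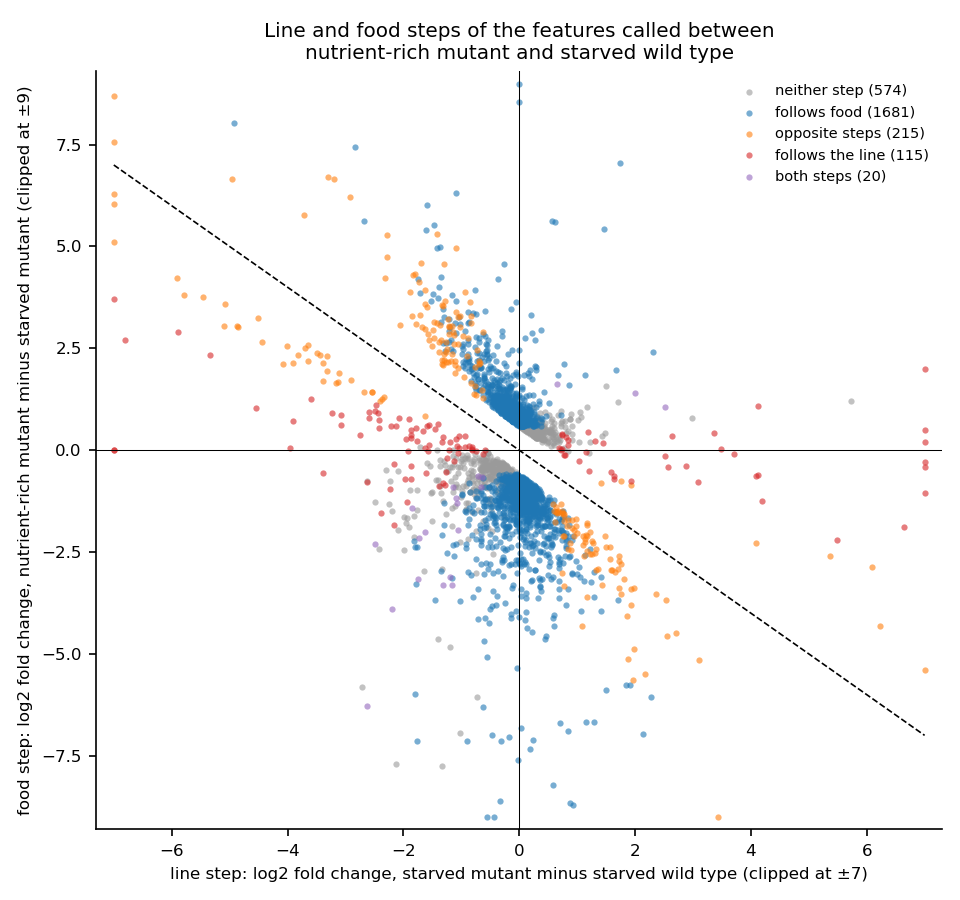
Each point is 1 of the 2605 called features, with the line step (log2 fold change of starved mutant over starved wild type) on the x axis and the food step (nutrient-rich over starved mutant) on the y axis, both clipped, and colours for the 5 classes. The dashed line marks a whole difference of 0, and the 1681 features that followed food lie in 2 clouds above and below it, near a line step of 0.

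Among the genes that followed food and were higher, the sharpest was a juvenile hormone epoxide hydrolase 1-like gene (Dapma7bEVm006245t1), whose insect relatives break down juvenile hormone. It had 0 counts in all 6 starved libraries and 51.9, 67.1 and 58.4 CPM in the nutrient-rich mutants. Against a floor of 3 counts over the starved wild-type libraries it was at least 598-fold higher. The name of this feature carries a split label, so its 0 counts may not hold for the whole gene. Haemoglobins, the oxygen carriers of Daphnia blood, formed the clearest group: of 10 tested, 4 were higher, 0 lower, and all 4 followed food. Of all tested genes 6.37% were higher. The most abundant (Dapma7bEVm028977t1) had 1021, 1413 and 883 CPM in starved wild type, 1078, 1420 and 1176 CPM in starved mutants and 4663, 3834 and 5101 CPM in nutrient-rich mutants, a log2 difference of 2.04 with an SE of 0.21 (adjusted p = 0.000875, edgeR). Both starved groups thus shared a level and every nutrient-rich library lay above them. A low-level haemoglobin (Dapma7bEVm011064t1) went from 0.511, 0.300 and 0.380 CPM in starved wild type to 33.7, 18.9 and 37.6 CPM, with 0.469, 0.539 and 0.777 CPM in starved mutants. The 2-domain hemoglobin (Dapma7bEVm015367t1) had a log2 difference of 3.84 with an SE of 0.32 (adjusted p = 0.000328, edgeR) and a line step of only -0.36. Family members with near-identical sequence can share reads, here as in the vitellogenins, trypsins and opsins below, so values of single copies are uncertain.

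Among genes of protein folding and translation the called members were all higher, though most members did not pass. Heat shock proteins and chaperones had 20 of 58 higher and 0 lower, 15 of them following food, and mitochondrial ribosomal proteins 19 of 74 higher and 0 lower, 15 of them following food. Over all tested genes, with 1 feature each, 6.37% were higher and 7.71% lower. The median log2 fold change was 0.60 for the chaperones and 0.50 for the mitochondrial ribosomal proteins, against 0.02 for all features. Heat shock 70 kDa protein cognate 3 (Dapma7bEVm003115t1), the chaperone of the endoplasmic reticulum, had 482, 505 and 502 CPM in starved wild type, 407, 350 and 380 CPM in starved mutants and 1176, 699 and 1054 CPM in nutrient-rich mutants. It was chosen after its values were seen. Heat shock 70 kDa protein cognate 4 (Dapma7bEVm003127t1), a cytosolic chaperone, had 578, 619 and 572 CPM in starved wild type and 864, 1405 and 855 CPM in nutrient-rich mutants, where replicate 2 was the highest, and its call was lost with library totals and without that library, any starved wild-type library or starved mutant replicate 3. Cytosolic ribosomal proteins had 7 of 79 higher, a share near that of all genes, and 0 lower, and all 7 followed food. Their summed level was 47060 to 49090 CPM in starved wild type, 39410 to 43190 CPM in starved mutants and 55840 to 74890 CPM in nutrient-rich mutants. Their food step within the mutant was called higher in 47 of 79, against 12.2% of all tested genes. Their median line step was -0.23 and was called in 0 of 79, so its sign carries little weight for single genes. These modest differences were sensitive: with library totals 5 chaperones, 1 mitochondrial and 1 cytosolic ribosomal protein were called higher, and leaving out 1 library gave 6 to 25, 3 to 29 and 1 to 22, the low ends without starved wild-type libraries. Without nutrient-rich mutant replicate 2 the counts were 17, 19 and 7.

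Of 42 lipid carriers 11 were higher and 4 lower, or 7 and 5 with library totals. For these and the lists below, 6.37% of all tested genes were higher and 7.71% lower. Of the 11 higher members 5 followed food, 4 had opposite steps and 2 had neither step called. Retinoid- and fatty acid-binding glycoprotein (Dapma7bEVm009632t1), which carries lipid in insect blood, had 6518, 7181 and 6712 CPM in starved wild type, 7916, 10080 and 8817 CPM in starved mutants and 11570, 21320 and 12910 CPM in nutrient-rich mutants. The call was lost without starved wild-type replicate 1 or 3. Glutathione S-transferase 1 (Dapma7bEVm000591t1), which attaches glutathione to foreign compounds, followed food and had 45.8, 58.9 and 35.4 CPM in starved wild type, 54.8, 38.3 and 45.2 CPM in starved mutants and 123, 228 and 138 CPM in nutrient-rich mutants. Vitellogenin receptor (Dapma7bEVm009604t1), through which oocytes take up yolk, went from 33.3 ± 0.752 CPM (SD, n = 3) to 78.5 ± 21.3 CPM with 36.5 ± 2.26 CPM in starved mutants. Methyl farnesoate epoxidase-like (Dapma7bEVm030571t1) was also higher, at a low level of 6.06, 5.66 and 6.84 CPM against 1.84, 3.199 and 1.24 CPM, a call that was lost with library totals and with several libraries left out. ABC transporters, membrane pumps, had 14 of 71 higher, 12 of them following food, and 10 lower. With library totals 6 ABC transporters were called higher. Cytochrome P450 genes had 2 of 41 higher and 5 lower.

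**Figure D2:**
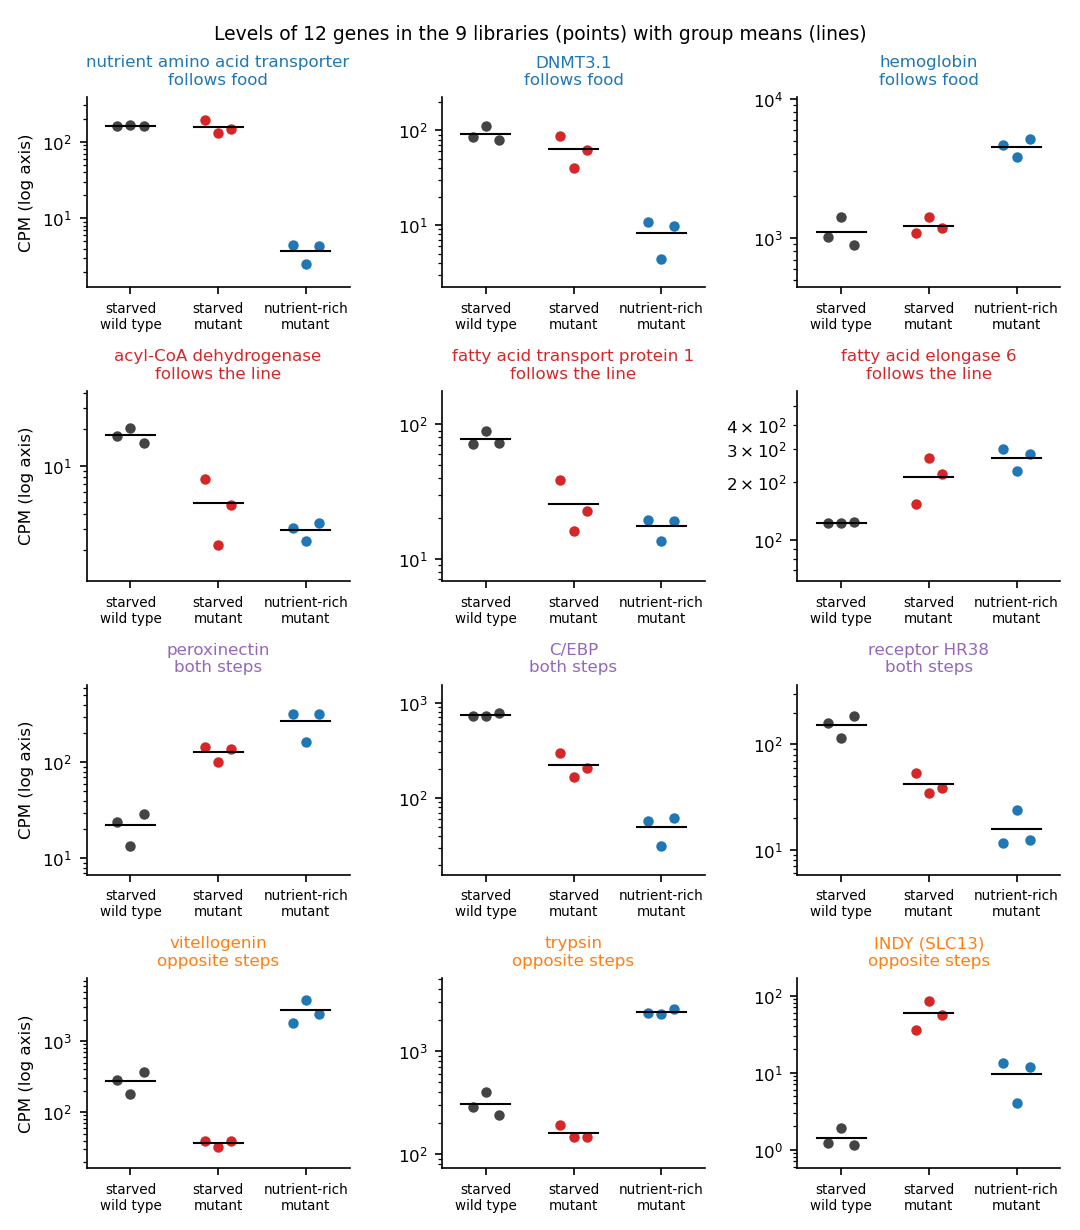
CPM of 12 genes on a log axis in the 9 libraries, 3 genes for each of 4 classes, with points for libraries and lines for group means. Starved mutants sit with the starved wild type in the top row, with or near the nutrient-rich mutants in the row of genes that followed the line, between both in the row of both steps, and outside both in the bottom row.

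The genes that followed food downward had the larger differences, with a median log2 fold change of -1.31 against 0.90 for those that rose. A sodium-dependent nutrient amino acid transporter 1-like gene (Dapma7bEVm002214t1), from a family that takes up essential amino acids in insects, had 160, 164 and 159 CPM in starved wild type, 190, 130 and 148 CPM in starved mutants and 4.47, 2.51 and 4.32 CPM in nutrient-rich mutants. Its log2 difference was -5.40 with an SE of 0.25 (adjusted p = 2.21e-05, edgeR) and it had a line share of 0.00844, so nearly all of its difference lay in the food step within the mutant. CD9 antigen-like (Dapma7bEVm002443t1), a tetraspanin of the cell membrane, fell from 312 ± 9.12 CPM (SD, n = 3) to 11.5, 9.68 and 14.0 CPM, with 252, 162 and 204 CPM in starved mutants. An epithelial chloride channel protein-like gene (Dapma7bEVm027630t1) was counted at 32.7, 33.8 and 36.8 CPM in starved wild type and had 0 counts in all nutrient-rich libraries, at least 316-fold lower against the floor. Of the 24 called features with 0 counts throughout the nutrient-rich mutants, 15 followed food and 2 the line. This split is near that of all called features, of which 64.5% followed food and 4.41% the line.

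Insulin signalling, the hormone pathway that couples feeding to growth, had 6 of 34 members lower and 0 higher, and all 6 followed food. Of all tested genes 7.71% were lower and 6.37% higher. An insulin receptor-like gene (Dapma7bEVm009863t1) had 76.0, 86.9 and 81.9 CPM in starved wild type, 81.2, 68.1 and 83.9 CPM in starved mutants and 35.0, 38.3 and 37.9 CPM in nutrient-rich mutants. Insulin receptor substrate 1 (Dapma7bEVm004503t1), the adaptor below the receptor, fell from 140, 166 and 147 CPM to 61.8, 49.5 and 63.7 CPM, with 196, 181 and 173 CPM in starved mutants. The others, chosen after their values were seen, were a further insulin receptor-like gene (Dapma7bEVm009862t1, log2 fold change -1.52), forkhead box protein O (Dapma7bEVm005483t1, -1.24), the transcription factor that insulin signalling holds out of the nucleus, an insulin-like peptide (Dapma7bEVm013141t1, -1.66), and an mRNA-binding protein that shares only the name (Dapma7bEVm015109t1, -1.29). The median of the whole list was -0.22, and -0.05 without nutrient-rich mutant replicate 2. With 1 library left out 5 to 7 members were called, and with library totals 8.

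Among muscle, neuron and eye genes the calls were mostly lower, and most of them followed food. Of all tested genes 7.71% were lower. Muscle proteins had 7 of 23 lower and 0 higher, with a median log2 fold change of -0.57 in the whole comparison, 0.11 in the line step and -0.73 in the food step. Myosin light chain alkali (Dapma7bEVm010446t1) had 2016, 2098 and 1991 CPM in starved wild type, 2240, 2265 and 2217 CPM in starved mutants and 1279, 1190 and 1265 CPM in nutrient-rich mutants. The summed muscle level was 16920 to 18570 CPM in starved wild type and 10860 to 14260 CPM in nutrient-rich mutants. Genes of neurons and the eye had 25 of 148 lower and 1 higher, with 21 of the 25 following food. Among them a long-wavelength-like opsin, a light-sensing protein (Dapma7bEVm018607t1) had 510, 527 and 544 CPM in starved wild type, 604, 590 and 576 CPM in starved mutants and 248, 75.9 and 262 CPM in nutrient-rich mutants, where replicate 2 was the lowest. Its call was lost without any 1 of the 6 starved libraries and with the 6 compared libraries alone. The summed level of this list fell from between 4729 and 4887 CPM to between 2676 and 3364 CPM. Leaving out 1 library gave 4 to 8 muscle genes and 10 to 31 neuron and eye genes. The 4 occurred without each of the 6 starved libraries and the 10 without starved wild-type replicate 1, and without nutrient-rich mutant replicate 2 the counts were 8 and 31. The period clock gene (Dapma7bEVm010023t1), which represses its own transcription in the insect circadian loop, had 237, 265 and 252 CPM against 127, 111 and 125 CPM, with 275, 239 and 249 CPM in starved mutants.

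**Figure D3:**
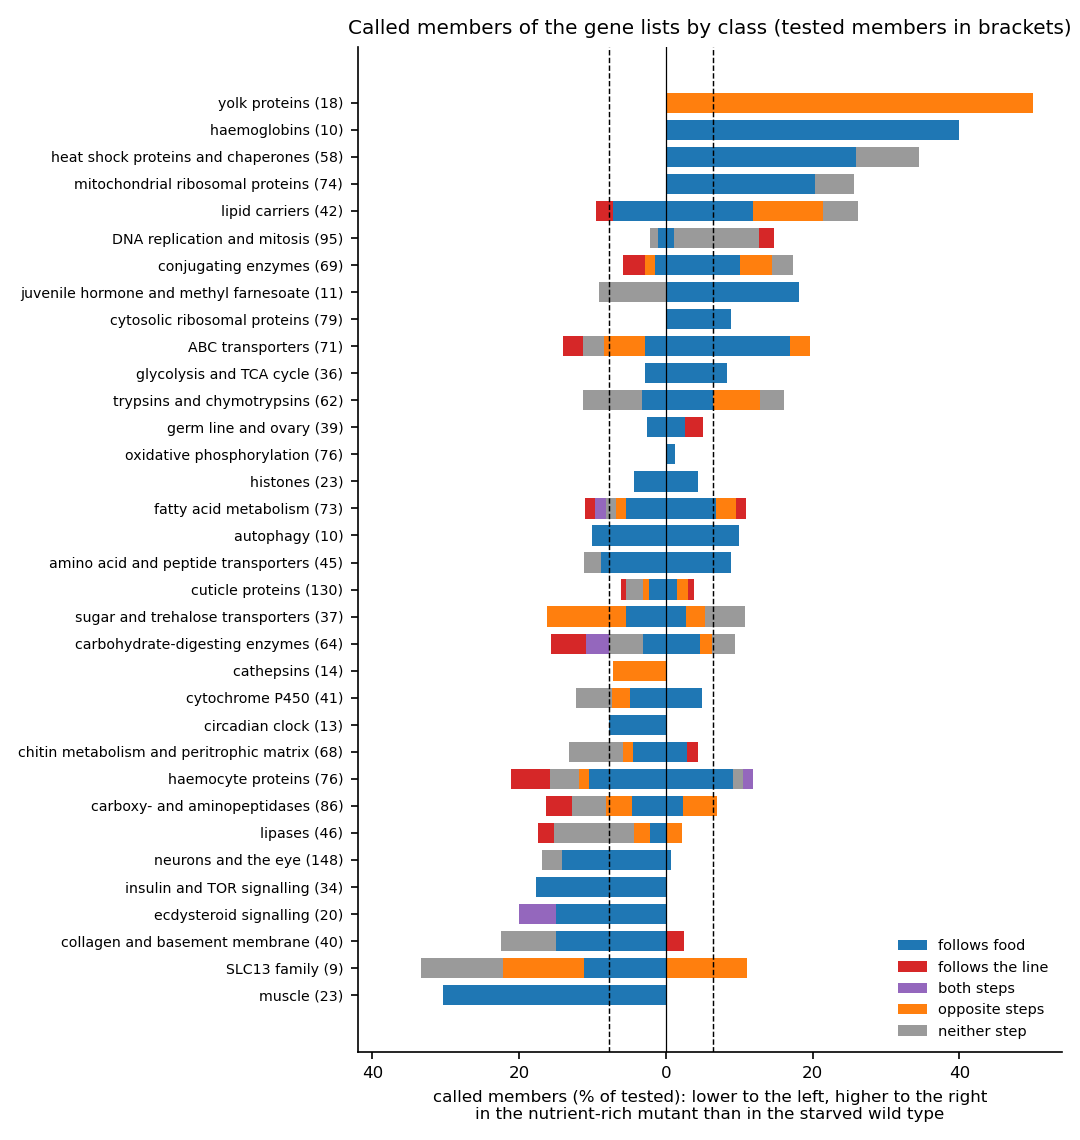
Called members of each gene list as a percentage of its tested members, higher in nutrient-rich mutants to the right and lower to the left, coloured by class, with dashed lines at 6.37% and 7.71% for all tested genes. All 9 called yolk proteins had opposite steps, all 4 called haemoglobins and all 7 called muscle genes followed food.

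Features that followed the line were few, but they included some with 0 counts throughout the starved wild type. The gene for exosome complex component RRP4 (Dapma7bEVm005705t1), a cap protein of the RNA-degrading exosome, had 0 counts in all 3 wild-type libraries, 14.6, 18.02 and 14.3 CPM in starved mutants and 6.25, 24.4 and 8.00 CPM in nutrient-rich mutants, at least 130-fold higher. The F-box only protein 31-like gene (Dapma7bEVm011816t1), a substrate receptor of a ubiquitin ligase, had 0 counts in the wild type, 10.9, 8.70 and 6.82 CPM in starved mutants and 8.74, 18.4 and 10.4 CPM in nutrient-rich mutants. DNA primase large subunit (Dapma7bEVm006232t1), part of the enzyme that primes DNA synthesis, had 0 counts in the wild type and a low level of 2.16 to 9.43 CPM in the mutants. The name of the primase feature carries a split label, so its 0 counts may not hold for the whole gene. In all, 9 called features had 0 counts throughout the starved wild type, and 6 of them followed the line, beside 4.41% of all called features. Such features could pass the expression filter only through the mutants, and 7 of the 9 were counted in starved mutants. Their class was therefore partly fixed in advance. Chitinase 17 (Dapma7bEVm015858t1), of the enzymes that degrade chitin, had 0, 2.20 and 2.66 CPM in starved wild type, 15.3, 27.3 and 21.7 CPM in starved mutants and 15.2, 28.04 and 17.3 CPM in nutrient-rich mutants.

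Of 73 genes of fatty acid metabolism 8 were higher and 8 lower, beside 6.37% and 7.71% of all tested genes. Of these 5 and 4 followed food and 1 in each direction, an elongation gene and a dehydrogenase, followed the line. The medium-chain specific acyl-CoA dehydrogenase gene (Dapma7bEVm027881t1), for a mitochondrial enzyme of fatty acid oxidation, had 17.6, 20.6 and 15.3 CPM in starved wild type, 7.69, 2.23 and 4.75 CPM in starved mutants and 3.08, 2.39 and 3.37 CPM in nutrient-rich mutants. Its line step of -1.87 (edgeR adjusted p = 0.0198) made up 0.723 of the whole log2 difference of -2.59. Long-chain fatty acid transport protein 1 (Dapma7bEVm015315t1), which brings fatty acids into cells, had 71.9, 88.7 and 73.0 CPM in starved wild type and 19.5, 13.6 and 19.2 CPM in nutrient-rich mutants, with 38.4, 16.1 and 22.4 CPM in starved mutants. In the opposite direction, elongation of very long chain fatty acids protein 6 (Dapma7bEVm005653t1), which lengthens fatty acids in synthesis, had 123, 123 and 124 CPM in starved wild type, 154, 268 and 222 CPM in starved mutants and 299, 229 and 280 CPM in nutrient-rich mutants. Endo-beta-1,4-mannanase (Dapma7bEVm003800t1), which cuts plant mannan, followed the line downward with 320, 389 and 234 CPM in starved wild type, 138, 30.1 and 76.5 CPM in starved mutants and 41.7, 24.1 and 35.8 CPM in nutrient-rich mutants, and its uncalled food step of -1.27 was still sizeable. Beta-1,3-glucan-binding protein (Dapma7bEVm009630t1), an immune recognition protein of arthropod blood, had 865, 981 and 938 CPM against 568, 616 and 441 CPM with 449, 260 and 340 CPM in starved mutants, but this call was lost under the replicate block and without 6 of the 9 libraries in turn.

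Features with both steps called in the same direction numbered 20, of which 17 were lower. In 569 of the 574 features with neither step called the line share also lay between 0 and 1, with a median of 0.44, and these 574 split into 278 higher and 296 lower. CCAAT/enhancer-binding protein (Dapma7bEVm005752t1), from a family of transcription factors that regulate energy metabolism in mammals, had 717, 715 and 770 CPM in starved wild type, 297, 164 and 205 CPM in starved mutants and 57.3, 31.4 and 61.5 CPM in nutrient-rich mutants. The groups formed 3 separate levels, with a line step of -1.72 (edgeR adjusted p = 0.00800) and a food step of -2.15 (adjusted p = 0.00103, edgeR). Nuclear hormone receptor HR38 (Dapma7bEVm024247t1), an ecdysteroid-response factor of insects, fell from 158, 115 and 184 CPM over 53.7, 34.6 and 38.4 CPM to 11.6, 23.6 and 12.3 CPM. Stripe/egr-like protein (Dapma7bEVm006200t1), an early growth response factor, had 39.8, 29.5 and 49.8 CPM, then 24.8, 11.01 and 16.3 CPM, then 2.08, 1.89 and 2.00 CPM in the same order of groups. The gene for mitochondrial 4-aminobutyrate aminotransferase (Dapma7bEVm004192t1), which breaks down the transmitter GABA, went from 111, 128 and 106 CPM over 58.1, 12.7 and 32.8 CPM to 4.57, 3.02 and 3.90 CPM. Upward, peroxinectin (Dapma7bEVm001757t1), a cell adhesion protein of crustacean haemocytes, had 23.9, 13.5 and 28.9 CPM in starved wild type, 145, 100 and 137 CPM in starved mutants and 323, 161 and 317 CPM in nutrient-rich mutants.

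Of the 36 lists, yolk had the most called members with opposite steps. Of 18 vitellogenin genes 9 were higher in nutrient-rich mutants than in starved wild type, against 6.37% of all tested genes, and 0 lower. For all 9 the starved mutant had the lowest level. Their median log2 fold change over the 18 was 0.69, with a median line step of -1.28 and a median food step of 1.95. The largest difference was in Dapma7bEVm020442t1, with 287, 183 and 368 CPM in starved wild type, 38.8, 32.5 and 38.95 CPM in starved mutants and 1832, 3843 and 2453 CPM in nutrient-rich mutants. At a far higher count, Dapma7bEVm002960t1 had 6533, 6148 and 7639 CPM, then 3231, 1767 and 2334 CPM, then 17250, 26860 and 20860 CPM in the same order, a log2 difference of 1.68 with an SE of 0.25 (adjusted p = 0.00380, edgeR). Vtg1 (Dapma7bEVm024402t1) had 7783, 7170 and 9444 CPM in starved wild type against 12420, 19520 and 14290 CPM in nutrient-rich mutants, a call that was lost without starved wild-type replicate 1 or 2 and with the 6 compared libraries alone. Summed over the list, yolk transcripts took 36070 to 46910 CPM in starved wild type, 15790 to 17430 CPM in starved mutants and 73060 to 96050 CPM in nutrient-rich mutants, and these ranges did not overlap. The count was 5 with library totals, 10 without nutrient-rich mutant replicate 2 and 3 to 10 with 1 library left out, lowest without starved wild-type replicate 1 or 2.

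Digestive enzymes went both ways, where 6.37% of all tested genes were higher and 7.71% lower. Of 62 trypsins and chymotrypsins, the gut proteases, 10 were higher and 7 lower, and 4 of the 10 had opposite steps. Trypsin Dapma7bEVm015180t1 had 288, 401 and 241 CPM in starved wild type, 194, 146 and 147 CPM in starved mutants and 2370, 2275 and 2548 CPM in nutrient-rich mutants, a log2 difference of 2.95 with an SE of 0.22 (adjusted p = 0.000229, edgeR). Trypsin Dapma7bEVm016630t1 showed the same order with 95.1, 137 and 72.8 CPM, 46.8, 34.0 and 43.2 CPM, and 857, 1092 and 993 CPM. With library totals the counts were 5 higher and 8 lower. Carbohydrate-digesting enzymes had 6 of 64 higher and 10 lower, or 2 and 12 with library totals. Endoglucanase 2 (Dapma7bEVm001537t1), which cuts cellulose, was lower and had 1854, 2161 and 1765 CPM in starved wild type, 867, 316 and 525 CPM in starved mutants and 391, 105 and 378 CPM in nutrient-rich mutants. A glycoside hydrolase family 7 gene (Dapma7bEVm010275t1) was also lower and had 1589, 2054 and 1433 CPM, then 706, 121 and 363 CPM, then 112, 30.4 and 161 CPM. For both, neither step was called alone, and the food steps of -0.97 and -1.97 had edgeR adjusted p = 0.188 and 0.0634. The abundant epsilonTry trypsin (Dapma7bEVm010425t1) was not called, with 1610, 2223 and 1292 CPM against 1419, 319 and 1224 CPM, and its groups overlapped. Of the 46 lipases 8 were lower and 1 higher. Leaving out 1 library gave 5 to 11 trypsins and chymotrypsins higher and 2 to 6 lower, and 3 to 8 lipases lower.

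Transporters and iron genes gave further cases in which the starved mutant lay outside. INDY (Dapma7bEVm010715t1), a citrate carrier of the SLC13 family, had 1.23, 1.90 and 1.14 CPM in starved wild type, 35.9, 83.8 and 56.4 CPM in starved mutants and 13.3, 4.02 and 11.7 CPM in nutrient-rich mutants. It was higher in nutrient-rich mutants by a log2 difference of 2.77 with an SE of 0.52 (adjusted p = 0.00954, edgeR), a call that was lost without starved wild-type replicate 1. Here the line step of 5.36 exceeded the whole difference and the food step went against it, which held for 8 of the 96 higher features with opposite steps. Sugar transporter 8 (Dapma7bEVm003185t1) had 47.5, 46.8 and 50.4 CPM in starved wild type, 209, 342 and 288 CPM in starved mutants and 24.2, 17.2 and 24.4 CPM in nutrient-rich mutants. Cytochrome P450 4c3 (Dapma7bEVm002285t1), of a family that oxidizes hormones and foreign compounds, had 45.3, 43.0 and 45.8 CPM, then 115, 168 and 138 CPM, then 18.8, 14.7 and 18.9 CPM. This order, with the starved mutant highest, was the more frequent among the lower features with opposite steps, 81 against 38 in which it was lowest. Ferritin heavy chain (Dapma7bEVm005357t1), which stores iron, had 12.2, 14.2 and 6.94 CPM, then 4.79, 2.23 and 3.28 CPM, then 47.0, 114 and 89.4 CPM.

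**Figure D4:**
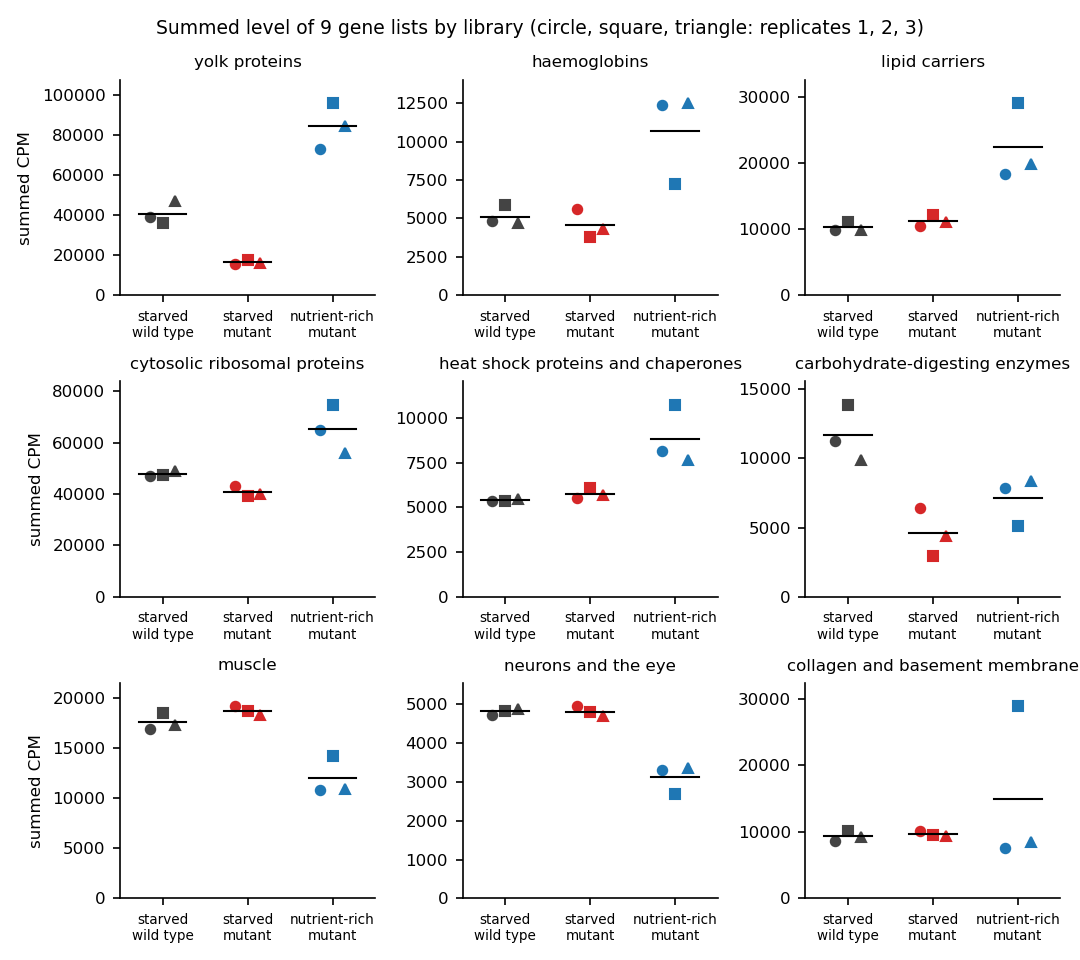
Summed CPM of 9 gene lists in each library, circles, squares and triangles for replicates 1, 2 and 3 and lines for group means. In every panel but that of collagen the sums do not overlap between starved wild type and nutrient-rich mutants. In the collagen panel the square of nutrient-rich mutant replicate 2 stands apart at 28940 CPM.

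Of 95 DNA replication and mitosis genes 14 were higher and 2 lower, beside 6.37% and 7.71% of all tested genes. The list had a median log2 fold change of 0.61, with a median line step of 0.36 and a median food step of 0.21. Of the 14 higher members 11 had neither step called, while 2 followed the line and 1 food. In the line step itself 7 members were called higher and 0 lower, where 2.97% of all tested genes were higher and 4.28% lower. The large subunit of ribonucleoside-diphosphate reductase (Dapma7bEVm004054t1), which makes deoxynucleotides, had 56.0, 57.3 and 69.0 CPM in starved wild type, 64.5, 80.3 and 75.8 CPM in starved mutants and 113, 103 and 105 CPM in nutrient-rich mutants, a call that was lost with library totals. DNA polymerase alpha catalytic subunit (Dapma7bEVm006168t1), chosen after its values were seen, followed the line, with 29.7, 27.4 and 28.9 CPM, then 39.1, 60.9 and 54.9 CPM, then 55.2, 67.4 and 47.6 CPM. In the germ line list, maelstrom (Dapma7bEVm004746t1), of the piRNA pathway in flies, likewise followed the line, from 23.6, 18.6 and 21.4 CPM over 28.3, 41.8 and 36.4 CPM to 41.1, 52.3 and 47.4 CPM. The summed level of the replication list was 2444 to 2644 CPM in starved wild type and 3114 to 3902 CPM in starved mutants, and in nutrient-rich mutants 3146, 6630 and 2797 CPM. Without nutrient-rich mutant replicate 2 the count was 13 with a median of 0.34, with library totals 4, and with 1 library left out 1 to 30, fewest without starved wild-type replicate 1 or 2 and most without nutrient-rich mutant replicate 3.

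Large steps could cancel between these groups. In 1041 features line and food steps were called in opposite directions, and 826 of them were not called between nutrient-rich mutant and starved wild type, 353 with the starved mutant highest and 473 with it lowest. Cuticle proteins, the structural proteins of the exoskeleton, had 45 members of this kind, the most of the 36 lists. The starved mutant was highest in 35 of the 45 and lowest in 10. With the 6 compared libraries alone 82 of the 130 cuticle genes passed the expression filter. The others entered the test through the starved mutants, so for them a highest place of the starved mutant was largely fixed by the filter. In the line step 45 of the 130 were higher and 12 lower, beside 2.97% and 4.28% of all tested genes. In the food step 16 were higher, a share near that of all genes, and 49 lower, beside 12.2% and 11.2%. In the whole comparison 5 were higher and 8 lower, beside 6.37% and 7.71% of all tested genes. With 1 library left out the last 2 counts were 1 to 17 and 3 to 9, with 17 higher without nutrient-rich mutant replicate 1 and 1 without starved wild-type replicate 1 or 2. The nuclear receptor ftz-f1 (Dapma7bEVm011018t1), which acts in moulting, showed it in 1 gene, with 22.3, 25.2 and 27.4 CPM in starved wild type, 46.2, 79.6 and 62.4 CPM in starved mutants and 18.3, 30.9 and 17.6 CPM in nutrient-rich mutants. In the whole comparison its log2 difference was -0.17 with an SE of 0.26 (adjusted p = 0.686, edgeR), and its libraries overlapped. The glycosidase tobi (Dapma7bEVm003111t1), a target of insulin signalling in flies, had 87.3, 116 and 72.3 CPM in starved wild type and 72.7, 72.0 and 82.3 CPM in nutrient-rich mutants, with lower levels of 55.4, 25.7 and 40.7 CPM in starved mutants. Oxidative phosphorylation genes, of which 1 of 76 was called, had a median log2 fold change of -0.02 in the whole comparison, -0.07 in the line step and 0.05 in the food step. Their summed level was 79910 CPM in nutrient-rich mutant replicate 2 against 45060 and 44170 CPM in the other nutrient-rich libraries, and without that library the median was 0.15.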

How the data were processed

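RNA of whole female Daphnia magna was sequenced in 9 libraries of 3 groups. Mapping by the authors used CLC Genomics Workbench and the wFleaBase genome of this species. Raw counts (total reads per gene) and RPKM were deposited for 47109 gene features with 42462 gene IDs. The strand setting and the treatment of reads that match several copies are not given in the sources used here. The deposited RPKM values, scaled by the software of the authors, served only to check that the 9 count columns and RPKM columns of each library belong together. Per-sample columns left unused numbered 0. The deposited tables of the authors' own fold changes and p-values were not used.

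Tests on the counts used edgeR 4.0.16 under R 4.3.3 (filterByExpr by group, TMM, quasi-likelihood F-test, 1 fit of 9 libraries with group as a factor of 3 levels). The line step plus the food step equals the whole difference on the log2 scale. Gene lists (36) are patterns on gene names, with 1 feature per gene (17748 genes). Some gene IDs have several features and some feature names carry a split label, so a printed value belongs to 1 feature and not always to the whole gene. For groups at 0 counts, folds are lower bounds against 3 counts over the group. RefSeq names matched none of the gene IDs, so names are those of the files. The procedure was tested on simulated data.

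Named are the genes the paper gives with an ID, in each class and direction the 5 called genes with an informative name and the largest fold change at a mean of 5 CPM or more, and in each list and direction the 2 called members with the highest mean CPM. From these the text prints a choice. The members, lists and rules were chosen with earlier results of these data known. Alternatives were other scaling and filters, DESeq2 1.42.0, limma-voom (limma 3.58.1), the 6 libraries alone, a replicate block, no minimum fold change, and each library left out. Figures were drawn with matplotlib 3.10.9.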

Additional observations from a re-analysis of the deposited data

How the results depend on the processing

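No alternative reversed a called difference among the 2605. The 6 libraries alone gave 1550 calls (658 higher, 892 lower), of which 1472 were among the 2605. Library totals gave 448 higher calls, and all 28 named genes that lost their call with them were higher in nutrient-rich mutants. They also turned the sign of 10 list medians: carbohydrate-digesting enzymes, lipid carriers, fatty acid metabolism, amino acid and peptide transporters, histones, germ line and ovary, juvenile hormone and methyl farnesoate, autophagy, conjugating enzymes and DNA methyltransferases. DESeq2 called 2116 features in the line step and placed 239 with the line, and limma-voom 4181 and 416. Replicate numbers did not pair the wild-type libraries with the others. Deviations of same-numbered libraries from their group means correlated at -0.0786 to -0.0101 between starved wild type and nutrient-rich mutant, and differently numbered ones at -0.0678 to 0.0848. Between the starved groups these were -0.104 to -0.00755 and -0.0913 to 0.15. Between the mutant groups they were 0.00728 to 0.177 and -0.18 to 0.127, so pairing was not settled there. Under the replicate block 1871 features were called and 76 followed the line. With 1 library left out the calls ranged from 1070 to 3168 (higher 440 to 1488, lower 630 to 1724), those of the line step from 515 to 2678 and of the food step from 2927 to 5510, and the features that followed food from 878 to 1939 and the line from 25 to 234. Of the 137 named genes that were called, 76 kept their call with every library left out in turn and 91 under every other scaling, filter, tool or fit. The 3 libraries per group limit the precision, and a class rests on calls, so a step just short of the threshold counts as absent.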

Other observations

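Further gene lists had called members, some in both directions and others mostly lower. Over all tested genes, with 1 feature each, 6.37% were higher and 7.71% lower. Conjugating enzymes, which attach sugars, sulfate or glutathione to foreign compounds, had 12 of 69 higher and 4 lower in nutrient-rich mutants than in starved wild type, with 7 of the 12 following food. Their median log2 fold change was 0.03, from a median line step of -0.58 and a median food step of 0.81, and the sign of the median turned with library totals. Haemocyte proteins had 9 of 76 higher and 16 lower, of which 7 and 8 followed food and 4 of the lower ones the line. Carboxy- and aminopeptidases, which trim peptides in the gut, had 6 of 86 higher, a share near that of all genes, and 14 lower. Ecdysteroid signalling genes had 0 of 20 higher and 4 lower, 3 of which followed food, and the fourth was HR38, with both steps called. Collagen and basement membrane genes had 1 of 40 higher and 9 lower, although their summed level in nutrient-rich mutant replicate 2 was 28940 CPM against 8602 to 10090 CPM in starved wild type. With 1 library left out these counts ranged from 7 to 13 conjugating enzymes higher, 5 to 15 haemocyte proteins lower, 5 to 15 peptidases lower, 2 to 5 ecdysteroid genes lower and 4 to 9 collagen genes lower, and the lowest of each came without a starved wild-type library.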
